A study of Homo sapiens with 12 samples.

Results

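The receptor tyrosine kinases described here are 43 genes, taken by name from a table of gene expression in H1299 cells. They cover 16 families, among them the EGFR, insulin, TAM, EPH, Wnt-binding, discoidin and VEGF receptors. They were 43 of the 58031 gene entries kept, and 26 of them reached the level that was set for testing, among 20244 genes tested in all. The other 17 were measured at low levels and are given by their range. A further 16 receptor kinases, among them the FGF receptors, PDGFRA and KIT, were not among the 43 and served as a comparison list.

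H1299 is a human non-small cell lung cancer line, derived from a lymph node metastasis. The cells were grown as spheroids. RNA was sequenced from 12 libraries in 4 groups of 3: NT1 and NT2, which carried non-targeting hairpins, PRKCI_KD, in which the protein kinase C iota gene PRKCI was knocked down, and SOX2_KD, in which the transcription factor gene SOX2 was knocked down. All groups received lentiviral short hairpin RNA, and the number of hairpins per target is not in the labels. NT1 and PRKCI_KD were sequenced in lane 8 of a flow cell and NT2 and SOX2_KD in lane 7 of another, so that a difference between flow cells and one between the pairs cannot be told apart. The comparisons ask which receptor genes responded to loss of PRKCI, which to loss of SOX2, and whether the responses differed.

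Receptor tyrosine kinases are membrane proteins that bind a ligand outside the cell and pair up, which switches on a kinase domain inside it. The phosphorylated tails recruit adaptors such as GRB2 and SHC1 and feed the RAS-MAPK and PI3K-AKT pathways. EGFR, MET, RET, ALK, ROS1 and ERBB2 are targets of drugs in lung cancer, and AXL is known in that disease as a receptor linked to mesenchymal cells and to resistance against EGFR inhibitors. STYK1, PTK7, RYK, ERBB3, ROR1, ROR2 and EPHA10 are pseudokinases or have an atypical kinase domain. In RNA from bulk cultures, fewer cells with a transcript and less transcript per cell cannot be told apart.

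Levels are given as RPKM, reads scaled by gene length and by the read total of the library, so that they can be compared between genes. Fold changes are ratios of mean RPKM, and log2 values are differences of log2(RPKM + 1), a scale that understates changes of genes near or below 1 RPKM. Errors of means are SD with n = 3 libraries, errors of log2 values are standard errors, and adjusted p comes from limma, a linear model fitted across all 20244 genes, with Benjamini-Hochberg adjustment and a threshold of 0.05. Each gene has a single estimate of spread, taken over all 12 libraries. For AXL, EPHA3, EPHA5 and EPHA7, the errors in PRKCI_KD thus also draw on NT2 and SOX2_KD libraries, where these genes were near 0. The labels do not say that replicates came from separate cultures, so p-values measure only the spread between these libraries, which may be technical. An exact permutation test with 3 libraries a side cannot go below 0.1 and was not used.

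The libraries were deep, with RPKM denominators of 77.1 to 124.3 M reads. PRKCI stood at 13.8 to 16.4 RPKM in NT1 and 2.43 to 2.58 RPKM in PRKCI_KD, and SOX2 at 1.41 to 1.55 RPKM in NT2 and 0.523 to 0.588 RPKM in SOX2_KD. SOX2 was also lower in PRKCI_KD, at 1.78 to 2.27 RPKM, than in NT1, at 2.91 to 3.15 RPKM. The deposited values of 3 of 226 checked genes, namely SOX2, FGFR2 and ADAM17, did not come out as whole reads in every library, while those of all 43 receptors did. For SOX2 the exceptions were 2 of the 3 SOX2_KD libraries, at 163.5 and 122.4 reads, so its level there is a weaker check of the label. Marker genes of endothelial cells summed to 1.15 RPKM at most in any library, and 5 of 6 immune markers stayed under 0.5 RPKM throughout, the exception being the lysosomal gene CD68 at 17.4 to 35.8 RPKM. Of 11 lung epithelial markers 5 stayed under 0.5 RPKM, among them CDH1, the E-cadherin gene, at 0.0677 RPKM or less, while the keratin genes KRT8 and KRT18 carried the list at 34.9 to 120.9 and 53.3 to 140.8 RPKM. Of the mesenchymal-type markers, the filament gene VIM lay between 303.6 and 657 RPKM in all libraries, whereas CDH2 and FN1 were at 11.1 to 13.6 and 7.66 to 27.6 RPKM in NT1 and PRKCI_KD and at 0.320 to 0.616 and 0.201 to 0.293 RPKM in NT2 and SOX2_KD.

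The 2 pairs of groups stood far apart from each other. Pearson's r of log2(RPKM + 1) between libraries was 0.964 to 0.995 within NT1 and PRKCI_KD and 0.989 to 0.997 within NT2 and SOX2_KD, against 0.827 to 0.838 across the pairs, although the labels name H1299 for all 12. Whether the pairs hold the same line was not tested. Each knockdown was therefore read against the control sequenced with it, and values across the pairs are described first because they set which receptors each pair had available to change.

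The promoters of the 5 receptors whose NT1 and NT2 means differed by more than 50-fold are printed first, since these genes were nearly silent in one pair and expressed in the other. They were picked from those values, so the sequences describe the genes and test nothing. Each is the 250 bases 5′ of the RefSeq start in GRCh38.p14, written 5′ to 3′ on the strand of the gene, with every CG dinucleotide in capitals. AXL lies at chr19:41218973-41219222 on the plus strand, EPHA5 at chr4:65670490-65670739 on the minus strand, EPHA7 at chr6:93419560-93419809 on the minus strand, EPHA3 at chr3:89107371-89107620 on the plus strand and RET at chr10:43076819-43077068 on the plus strand.
AXL: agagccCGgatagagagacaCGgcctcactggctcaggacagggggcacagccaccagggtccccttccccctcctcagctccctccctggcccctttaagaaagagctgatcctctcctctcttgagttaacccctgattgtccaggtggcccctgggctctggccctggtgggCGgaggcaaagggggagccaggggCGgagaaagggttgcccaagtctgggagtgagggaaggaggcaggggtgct
EPHA5: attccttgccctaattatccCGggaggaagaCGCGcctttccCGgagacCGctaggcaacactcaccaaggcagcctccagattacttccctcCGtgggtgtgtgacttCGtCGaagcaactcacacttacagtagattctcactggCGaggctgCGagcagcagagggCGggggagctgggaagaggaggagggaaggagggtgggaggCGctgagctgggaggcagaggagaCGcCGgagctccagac
EPHA7: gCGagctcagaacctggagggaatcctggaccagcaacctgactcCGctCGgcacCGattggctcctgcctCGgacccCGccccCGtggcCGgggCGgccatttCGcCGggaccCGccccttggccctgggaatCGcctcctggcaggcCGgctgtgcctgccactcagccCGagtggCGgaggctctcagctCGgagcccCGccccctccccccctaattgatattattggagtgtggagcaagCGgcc
EPHA3: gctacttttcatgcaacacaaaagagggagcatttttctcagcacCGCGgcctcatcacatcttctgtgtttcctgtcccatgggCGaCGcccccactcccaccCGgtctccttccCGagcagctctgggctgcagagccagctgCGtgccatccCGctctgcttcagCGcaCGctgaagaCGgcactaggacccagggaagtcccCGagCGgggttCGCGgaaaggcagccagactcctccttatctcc
RET: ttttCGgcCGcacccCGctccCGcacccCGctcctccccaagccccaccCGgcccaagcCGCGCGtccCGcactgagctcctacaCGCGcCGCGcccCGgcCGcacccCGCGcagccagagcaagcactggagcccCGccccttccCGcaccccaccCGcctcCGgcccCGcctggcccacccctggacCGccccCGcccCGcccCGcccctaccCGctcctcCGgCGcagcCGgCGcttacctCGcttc

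The AXL promoter held 4 CG dinucleotides and stood at percentile 29.3 of all 35116 RefSeq promoters of that length, whose median was 11 with quartiles of 3 and 23. EPHA5 held 14, EPHA3 15 and EPHA7 19, between percentiles 55.2 and 65.4. RET held 33, at percentile 91.9. The GC-box letters GGGCGG, searched on both strands, occurred 2 times in AXL, once in EPHA5, 4 times in EPHA7, 5 times in RET and not in EPHA3, and 42.6% of all promoters held at least 1 copy. TATAAA was in none of the 5 windows and in 10.7% of all promoters. The 5 windows thus run from 4 to 33 CG dinucleotides, with RET above the upper quartile and the others, AXL included, between the quartiles. RefSeq lists further starts for AXL, EPHA5, EPHA7 and RET, and the start nearest to that of the GENCODE gene was used. Windows at the further starts held 13 CG dinucleotides for AXL, 23 for EPHA5, 20 and 14 for EPHA7 and 6 for RET. DNA methylation was not analysed here.

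**Figure D1:**
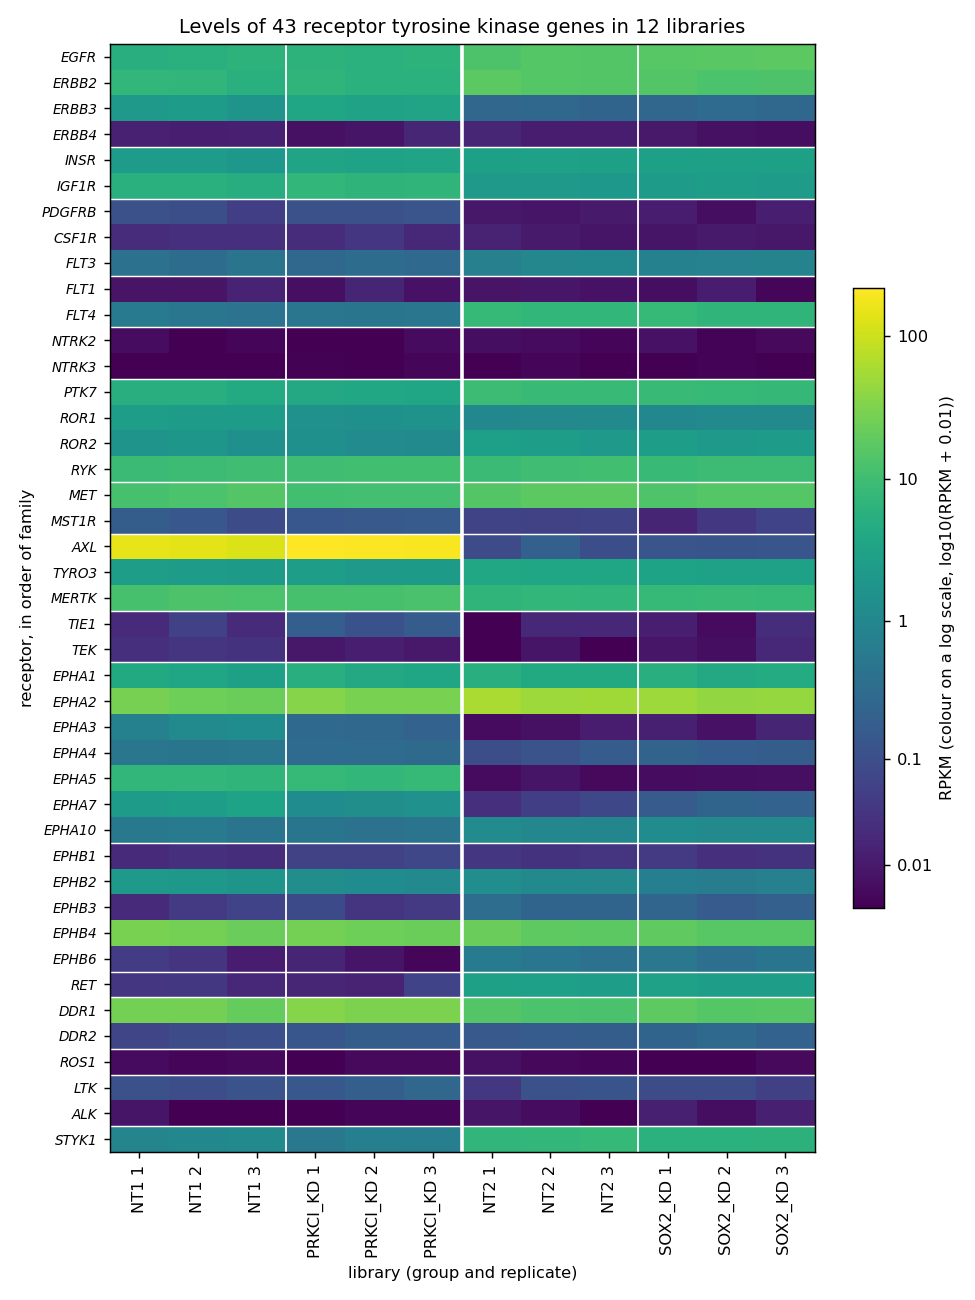
Levels of the 43 receptor genes (rows, by family) in the 12 libraries (columns, by group and replicate), as RPKM on a log colour scale of RPKM + 0.01. AXL, EPHA5, EPHA7 and EPHA3 are higher in every NT1 and PRKCI_KD library than in any NT2 or SOX2_KD library, and RET and FLT4 show the reverse.

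AXL, the TAM-family receptor for GAS6, was the most abundant receptor gene of NT1 and PRKCI_KD and nearly absent from the other pair. It measured 147, 146 and 129 RPKM in the NT1 replicates and 0.0931, 0.204 and 0.0981 RPKM in those of NT2. Those levels correspond to 65130 to 90415 reads per library in NT1 and 39 to 115 in NT2, a ratio of means of 1069. EPHA5, an ephrin-A receptor known mainly from neural tissue, was at 6.79 to 8.10 RPKM in NT1 and PRKCI_KD and at 2 to 8 reads per library in NT2 and SOX2_KD, so no fold is given for it. EPHA3, another ephrin-A receptor, showed 627 to 846 reads in NT1 and 2 to 6 in NT2. EPHA7 fell from a mean of 2.78 ± 0.438 RPKM in NT1 to 0.0528 ± 0.0244 RPKM in NT2.

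RET, the receptor for GDNF-family ligands and a fusion partner in lung cancer, was on the other side. Its level was 0.0379, 0.0411 and 0.0214 RPKM in NT1 and 2.92, 2.83 and 2.73 RPKM in NT2, 84.5-fold higher on the means. FLT4, the VEGF-C receptor of lymphatic vessels, was 14.7-fold higher in NT2, at 7.34 to 7.93 RPKM against 0.435 to 0.605 RPKM. STYK1, a receptor-like pseudokinase, was 7.01-fold higher, at 6.99 to 7.95 RPKM against 0.938 to 1.20 RPKM. PDGFRA, which is not among the 43, showed the widest gap of the comparison list, with 0.0440 to 0.0638 RPKM in NT1 and 133 to 154 RPKM in NT2.

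The EGF receptor family split between the pairs. EGFR was 5.24, 5.69 and 6.27 RPKM in NT1 and 13.5, 15.4 and 15.2 RPKM in NT2, and ERBB2, its ligandless partner, was 5.69 to 7.40 RPKM against 15.2 to 17.4 RPKM. ERBB3, the neuregulin receptor with a weak kinase, was 8.12-fold lower in NT2, with a mean of 0.262 ± 0.0252 RPKM. EPHA2, which binds ephrin-A1 and was the most abundant of the 43 in NT2, rose from 24.8 ± 2.69 RPKM in NT1 to 54.3 ± 5.12 RPKM in NT2. IGF1R fell 2.52-fold and the TAM receptor MERTK 1.77-fold.

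In all, 24 of the 26 tested receptors differed between NT2 and NT1, 13 higher and 11 lower, against 78.2% of all tested genes (36.2% higher, 42% lower). Libraries did not overlap for 22 of the 26, beside 77.5% of all tested genes. Flow cell and control cannot be told apart here, and RYK and EPHA1 were the 2 that did not pass. When all 6 libraries of a pair were set against the other 6, 9 of the 26 were higher in NT1 and PRKCI_KD without overlap and 11 higher in NT2 and SOX2_KD, and 6 overlapped. Of all tested genes 61.6% did not overlap, 33.8% being higher in NT1 and PRKCI_KD and 27.8% in NT2 and SOX2_KD. AXL, ERBB3, EPHA3, EPHA5 and EPHA7 stayed under 0.5 RPKM in NT2 and SOX2_KD, and RET and FLT3 did in NT1 and PRKCI_KD. FLT4 and EPHA10 reached 0.5 RPKM in too few NT1 and PRKCI_KD libraries. All of these met the level filter only through the side where they were higher, which favours a difference. The same filter was set for all tested genes. RYK, a Wnt receptor with an inactive kinase, lay between 8.56 and 10.7 RPKM in all 12 libraries.

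The order of the receptors differed accordingly. In NT1, AXL at 140.8 ± 10.3 RPKM was followed by EPHB4 at 25.8 ± 3.67, EPHA2 at 24.8 ± 2.69 and DDR1 at 24.7 ± 3.93 RPKM, and these 3 did not differ beyond their spread. MET, the HGF receptor, at 13.2 ± 1.43 RPKM and MERTK at 12.5 ± 0.650 RPKM came next and also lay within their spread. In NT2 the order was EPHA2 at 54.3 ± 5.12 RPKM, then EPHB4 at 19.3 ± 2.33, MET at 16.5 ± 1.52, ERBB2 at 16.0 ± 1.23, EGFR at 14.7 ± 1.04 and DDR1 at 13.4 ± 1.45 RPKM. EPHB4 lay above MET without overlap, and from MET down the ranges of neighbours overlapped. Each library had 19 to 22 of the 43 at 1 RPKM or more.

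**Figure D2:**
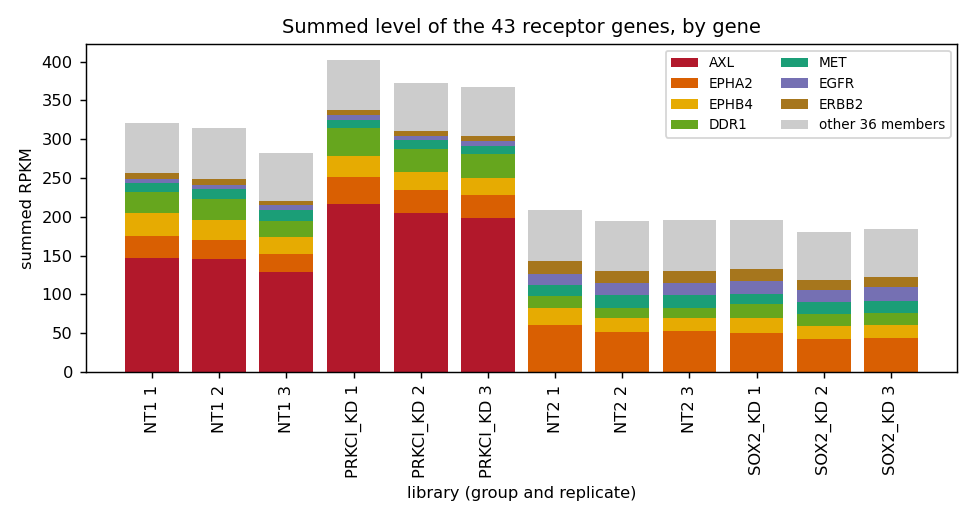
Summed RPKM of the 43 receptor genes in each library, stacked by gene for AXL and 6 others, with the remaining 36 in grey. AXL makes up 45.7% to 46.5% of the sum in NT1 and 53.7% to 55.0% in PRKCI_KD, and is not visible in NT2 or SOX2_KD.

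Knockdown of PRKCI was accompanied by a rise of AXL, the insulin-family receptors, ERBB3, EPHA2 and DDR1, and by a fall of EPHA3, EPHA7, EPHB2, MET, STYK1 and 3 Wnt-binding receptors. Of the 26 tested receptors, 6 rose, 8 fell and 12 did not pass, with a median log2 change of -0.05 against -0.04 over all tested genes. EPHA3, among those that fell, met the level filter only through its NT1 libraries. The share that passed, 53.8%, stood beside 45.1% of all tested genes (18.2% higher, 26.9% lower), which is near the background. All 14 had PRKCI_KD libraries that did not overlap those of NT1, a pattern shown by 51% of all tested genes. With quantile normalization the split was 8 higher and 7 lower, and that of all tested genes moved the same way, to 21% higher and 24.2% lower. The summed level of the 43 was 282 to 320 RPKM in NT1 and 367 to 402 RPKM in PRKCI_KD, but without AXL it was 153 to 173 RPKM and 168 to 186 RPKM, ranges that overlap.

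AXL itself measured 216, 205 and 198 RPKM in the PRKCI_KD replicates, each above the 147, 146 and 129 RPKM of NT1. The 1.47-fold rise was 0.55 ± 0.063 on the log2 scale (adjusted p = 3.77e-05). The other TAM receptors did not pass: MERTK was 11.8, 13.1 and 12.7 RPKM in NT1 and 11.8, 11.8 and 12.4 RPKM in PRKCI_KD (log2 -0.05 ± 0.049, adjusted p = 0.419), and TYRO3 was 2.28 to 2.69 RPKM and 2.23 to 2.53 RPKM.

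The receptors for insulin and its growth factors rose together. INSR, the insulin receptor, was 2.38, 2.39 and 2.03 RPKM in NT1 and 3.43, 3.12 and 3.43 RPKM in PRKCI_KD, with every knockdown library above every control. It rose 1.46-fold (log2 0.40 ± 0.054, adjusted p = 1.23e-04). IGF1R, which binds IGF1 and IGF2, went from 5.64, 5.53 and 5.09 RPKM to 7.30, 6.68 and 6.73 RPKM, a 1.27-fold rise (log2 0.30 ± 0.052, adjusted p = 7.51e-04). IRS1, the gene of a docking protein used by both and not one of the 43, fell from 14.4 ± 0.895 to 4.47 ± 0.248 RPKM (log2 -1.49 ± 0.059, adjusted p = 1.67e-08).

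ERBB3, which pairs with ERBB2 to signal to PI3K, rose while its relatives did not pass. Its levels were 2.24, 2.37 and 1.76 RPKM in NT1 and 3.70, 3.16 and 3.33 RPKM in PRKCI_KD, 1.60-fold higher (log2 0.50 ± 0.074, adjusted p = 2.66e-04). EGFR was 5.24 to 6.27 RPKM and 5.88 to 6.42 RPKM (log2 0.10 ± 0.067, adjusted p = 0.267), and the groups overlapped. ERBB2 was 5.69 to 7.40 RPKM and 5.91 to 6.75 RPKM (log2 -0.11 ± 0.095, adjusted p = 0.392), also with overlap.

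The ephrin receptors moved in opposite directions. EPHA2 was 27.9, 23.6 and 22.9 RPKM in NT1 and 35.6, 29.4 and 29.4 RPKM in PRKCI_KD, 1.27-fold higher (log2 0.33 ± 0.103, adjusted p = 0.0213). The call did not hold in a fit of the 6 libraries of the flow cell (adjusted p = 0.0518) or without NT1 replicate 2 (0.0707), NT1 replicate 3 (0.0690) or PRKCI_KD replicate 1 (0.0843). EPHA3 fell from 0.790, 1.15 and 1.29 RPKM to 0.290, 0.267 and 0.224 RPKM, 4.14-fold lower on the means (log2 -0.71 ± 0.075, adjusted p = 2.14e-05). It reached 0.5 RPKM only in NT1, so it met the level filter only through the group where it was high. That selection favours a fall, so the p-value of EPHA3 is to be read with that limit.

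EPHA7, a receptor with a known truncated form, was 2.45, 2.62 and 3.28 RPKM in NT1 and 1.28, 1.35 and 1.56 RPKM in PRKCI_KD, so that the highest knockdown library lay well under the lowest control. It fell 1.99-fold (log2 -0.65 ± 0.077, adjusted p = 4.94e-05). EPHB2, which binds B-type ephrins, fell from 2.12, 2.02 and 1.71 RPKM to 1.35, 1.25 and 1.13 RPKM (log2 -0.39 ± 0.066, adjusted p = 5.91e-04). Among those that did not pass, EPHB4, the ephrin-B2 receptor, was 29.1, 26.4 and 21.8 RPKM in NT1 and 26.9, 23.8 and 22.6 RPKM in PRKCI_KD (log2 -0.07 ± 0.115, adjusted p = 0.663). EPHA5 was 6.79 to 7.37 RPKM and 7.37 to 8.10 RPKM (log2 0.11 ± 0.048, adjusted p = 0.0902). EPHA5 was called higher with quantile normalization (adjusted p = 0.0138), with median-of-ratios scaling (0.0291) and without PRKCI_KD replicate 2 (0.0466). EPHA1 and EPHA10 did not pass either.

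Of the Wnt-binding receptors, 3 fell. ROR1, which binds WNT5A, was 2.58, 2.40 and 2.44 RPKM in NT1 and 1.55, 1.47 and 1.65 RPKM in PRKCI_KD, 1.59-fold lower (log2 -0.44 ± 0.050, adjusted p = 3.60e-05). PTK7, a co-receptor of planar polarity signalling, went from 5.31, 5.43 and 4.40 RPKM to 4.13, 4.03 and 3.68 RPKM (log2 -0.29 ± 0.073, adjusted p = 0.00798). ROR2, the relative of ROR1, was 1.74, 1.99 and 1.49 RPKM and then 1.46, 1.22 and 1.14 RPKM (log2 -0.27 ± 0.087, adjusted p = 0.0276), with the lowest control just above the highest knockdown library. That call was lost without a level filter (adjusted p = 0.0614), in the flow cell's own fit (0.0613) and without NT1 replicate 1 (0.0613), NT1 replicate 2 (0.108), PRKCI_KD replicate 2 (0.0778) or PRKCI_KD replicate 3 (0.0969). RYK, in contrast, was 9.14 to 10.1 RPKM and 10.0 to 10.7 RPKM (log2 0.12 ± 0.063, adjusted p = 0.154), and it was called higher with quantile normalization (0.0331).

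MET was 12.0, 12.7 and 14.8 RPKM in NT1 and 10.4, 10.8 and 11.0 RPKM in PRKCI_KD (log2 -0.27 ± 0.082, adjusted p = 0.0214). It was not called with quantile normalization (adjusted p = 0.0602) or without NT1 replicate 3 (0.0713), PRKCI_KD replicate 1 (0.0626) or PRKCI_KD replicate 2 (0.0519). STYK1 fell from 0.938, 1.04 and 1.20 RPKM to 0.543, 0.729 and 0.691 RPKM (log2 -0.32 ± 0.065, adjusted p = 0.00228). DDR1, a collagen receptor, rose from 26.9, 27.1 and 20.2 RPKM to 35.1, 30.0 and 30.2 RPKM (log2 0.36 ± 0.118, adjusted p = 0.0281). The DDR1 call was lost without a level filter (adjusted p = 0.0639), in the flow cell's own fit (0.0725) and without NT1 replicate 3 (0.0904) or PRKCI_KD replicate 1 (0.101). DDR1 and EPHB6 have more than 1 entry in the table, and for each a single entry was above 0 and was used. RET, FLT3 and FLT4 did not pass in this pair, where all 3 were at 0.605 RPKM or less.

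**Figure D3:**
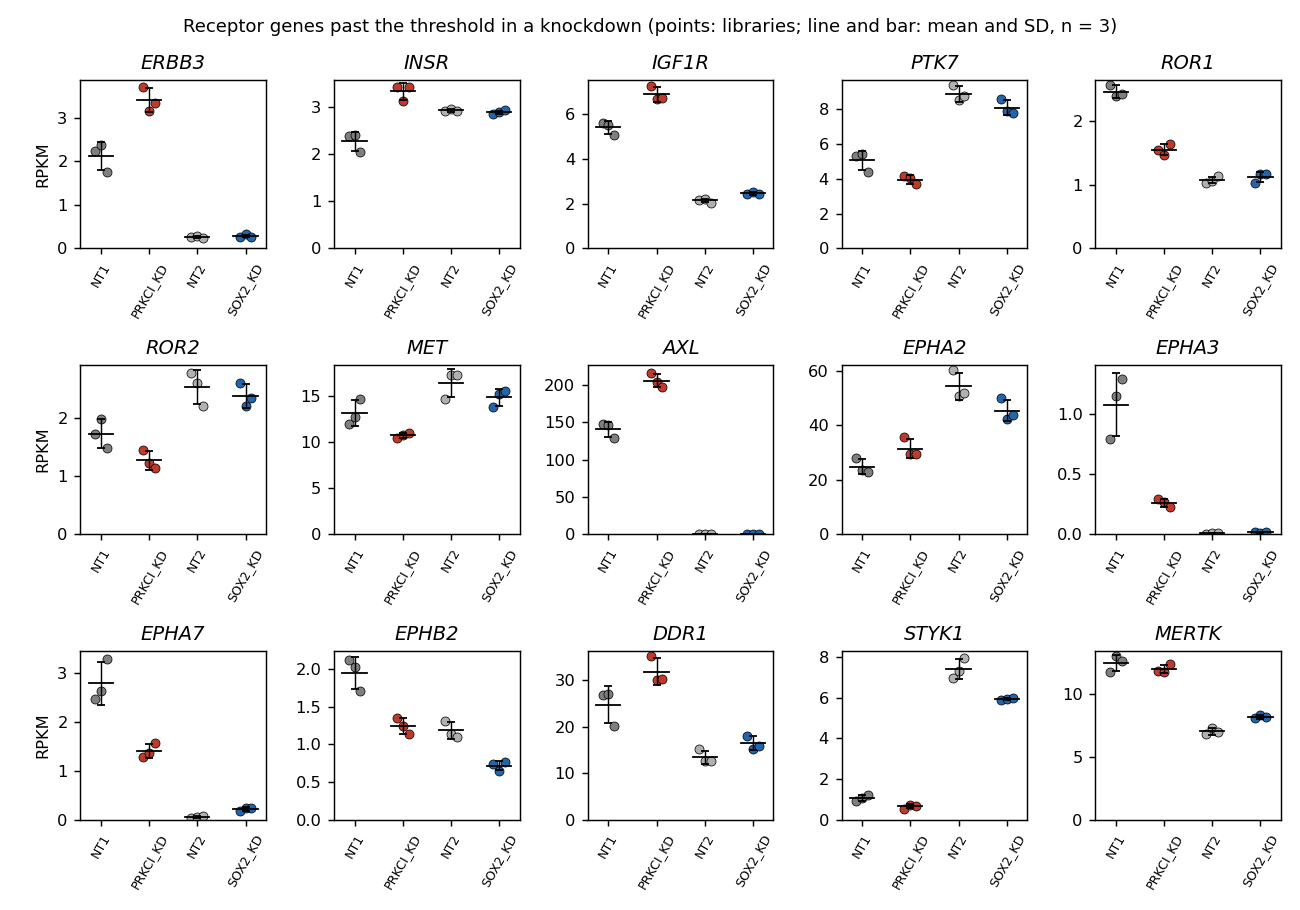
RPKM of the 15 receptor genes that passed the threshold in PRKCI_KD against NT1 or in SOX2_KD against NT2, by group; points are libraries, and line and bar are mean and SD (n = 3), on axes that start at 0. AXL, INSR and ERBB3 lie higher in PRKCI_KD than in NT1, EPHA3 and EPHA7 lower, and EPHB2 and STYK1 are lower in each knockdown than in its control.

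After SOX2 knockdown 3 of the 26 tested receptors passed, MERTK higher and EPHB2 and STYK1 lower, with a median log2 change of -0.02 against -0.02 over all tested genes. That is 11.5% of the receptors beside 8.22% of all tested genes (3.6% higher, 4.62% lower). Libraries of SOX2_KD and NT2 did not overlap for 10 of the 26, beside 31.1% of all tested genes. Same-numbered libraries of this pair deviated together clearly only for replicate 1, so a pairing by number is weakly supported. With the replicate number as a block 8 receptors passed, 3 higher and 5 lower. Of all tested genes 17.4% passed with it (6.49% higher, 10.9% lower). Without NT2 replicate 2 or 3, or without any one SOX2_KD library, 1 receptor passed, EPHB2. With quantile normalization 1 receptor rose and 1 fell, and the shares of all tested genes were 3.8% higher and 2.92% lower.

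EPHB2 had the smallest adjusted p of the 26 in the fit without the block. It fell from 1.31, 1.14 and 1.104 RPKM in NT2 to 0.734, 0.648 and 0.766 RPKM in SOX2_KD, 1.66-fold lower (log2 -0.35 ± 0.066, adjusted p = 0.00965). Every SOX2_KD library lay below every NT2 library, and the call held in all alternatives, with an adjusted p of up to 0.0495 when single libraries were left out. STYK1 went from 6.99, 7.34 and 7.95 RPKM to 5.91, 5.95 and 6.01 RPKM, 1.25-fold lower (log2 -0.28 ± 0.065, adjusted p = 0.0263). Its call was lost with a pseudocount of 0.1 (adjusted p = 0.110), without a level filter (0.0516), with quantile normalization (0.0650) and without NT2 replicate 2 (0.0705), NT2 replicate 3 (0.1), SOX2_KD replicate 1 (0.0736), 2 (0.0884) or 3 (0.0808).

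MERTK, which clears dying cells in macrophages, was 6.79, 7.35 and 7.02 RPKM in NT2 and 8.10, 8.39 and 8.15 RPKM in SOX2_KD, 1.16-fold higher (log2 0.20 ± 0.049, adjusted p = 0.0353). It missed the threshold in the flow cell's own fit (adjusted p = 0.0513) and without PRKCI_KD replicate 2 (0.0512), without any NT2 library (0.0562 to 0.101) and without any SOX2_KD library (0.0740 to 0.133). The remaining TAM receptors did not pass, AXL being at 0.126 to 0.131 RPKM in SOX2_KD and TYRO3 at 3.05 to 3.31 RPKM against 3.47 to 3.79 RPKM in NT2. TYRO3 was called lower with the replicate block (log2 -0.15 ± 0.038, adjusted p = 0.0442).

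The other 7 receptors without overlap between SOX2_KD and NT2 missed the threshold without the block, and 5 of them, TYRO3, EPHA2, ERBB2, DDR1 and EPHA7, passed with it. EPHA2 was 60.2, 50.8 and 52.0 RPKM in NT2 and 49.9, 42.4 and 44.0 RPKM in SOX2_KD (log2 -0.25 ± 0.103, adjusted p = 0.168, and 0.00453 with the replicate block). ERBB2 was 17.4, 15.3 and 15.2 RPKM and 14.8, 12.8 and 13.2 RPKM (log2 -0.22 ± 0.095, adjusted p = 0.200, and 0.0448 with the block). In both genes replicate 1 was the highest of its group, on either side of the comparison.

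DDR1 was 15.1, 12.6 and 12.5 RPKM in NT2 and 18.1, 15.3 and 15.9 RPKM in SOX2_KD (log2 0.28 ± 0.118, adjusted p = 0.187, and 0.0436 with the block). EPHA7, nearly silent in NT2 at 19, 44 and 44 reads, reached 153, 164 and 139 reads in SOX2_KD, or 0.0528 ± 0.0244 against 0.210 ± 0.0391 RPKM. That is 3.97-fold on the means, yet log2(RPKM + 1) differed by only 0.20 ± 0.077 (adjusted p = 0.143, and 0.0322 with the block). With a pseudocount of 0.1 the difference was 1.02 ± 0.159 and passed (adjusted p = 0.00458). EGFR was 13.5, 15.4 and 15.2 RPKM and 16.2, 16.7 and 17.2 RPKM (log2 0.17 ± 0.067, adjusted p = 0.147), and IGF1R was 2.18, 2.21 and 2.05 RPKM and 2.43, 2.54 and 2.43 RPKM (log2 0.14 ± 0.052, adjusted p = 0.132). Neither EGFR nor IGF1R passed with the block.

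Of the abundant receptors without a call, MET was 14.7, 17.4 and 17.4 RPKM in NT2 and 13.9, 15.2 and 15.6 RPKM in SOX2_KD (log2 -0.14 ± 0.082, 95% interval -0.32 to 0.05, adjusted p = 0.364). EPHB4 was 22.0, 18.2 and 17.7 RPKM and 19.0, 16.4 and 16.1 RPKM (log2 -0.16 ± 0.115, 95% interval -0.41 to 0.10, adjusted p = 0.478). FLT4 was 7.34 to 7.93 RPKM and 6.77 to 7.85 RPKM (log2 -0.06 ± 0.062, adjusted p = 0.623). PTK7 at 7.78 to 8.56 RPKM in SOX2_KD and 8.498 to 9.40 RPKM in NT2 (log2 -0.12 ± 0.073, adjusted p = 0.368) and RYK at 8.56 to 9.51 RPKM and 9.17 to 10.5 RPKM (log2 -0.10 ± 0.063, adjusted p = 0.364) overlapped between the groups. The intervals of MET and EPHB4 include falls as large as the rise of MERTK.

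**Figure D4:**
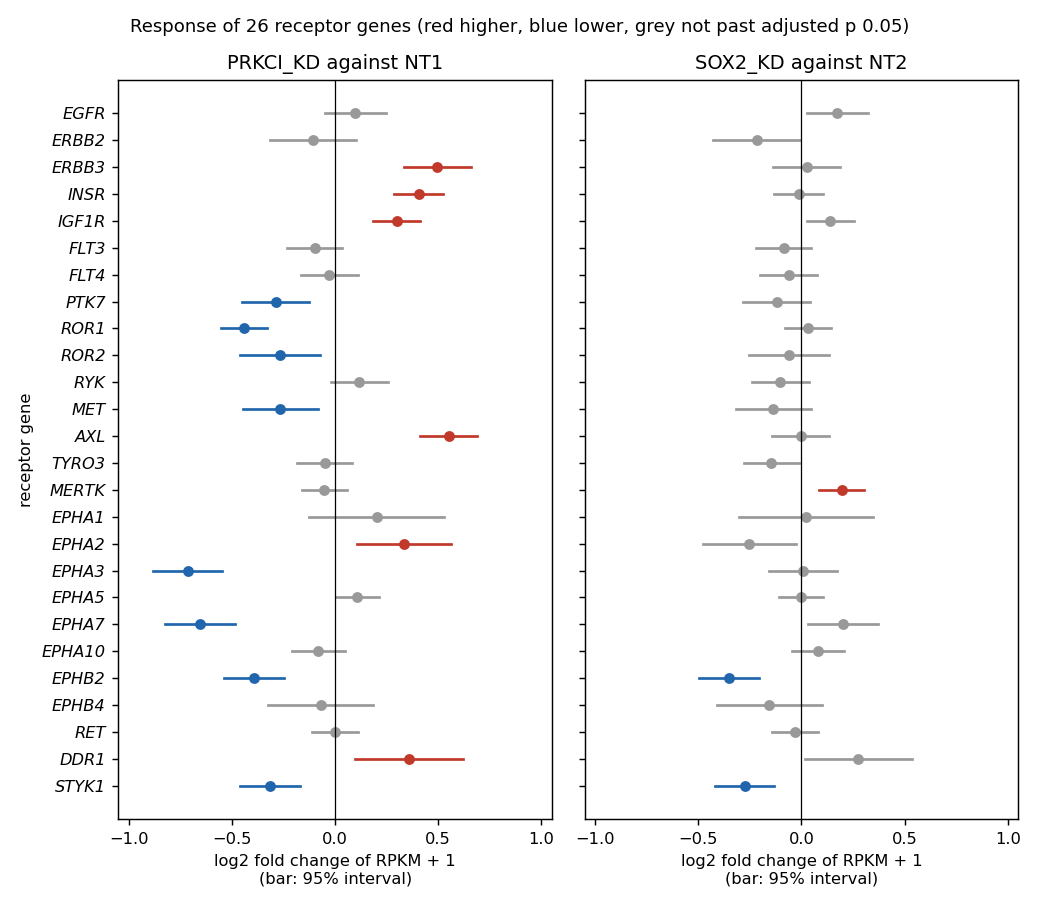
Log2 fold change of RPKM + 1 for the 26 tested receptor genes in PRKCI_KD against NT1 (left) and SOX2_KD against NT2 (right); points are estimates, bars their 95% intervals, red and blue mark receptors past an adjusted p of 0.05. EPHA3 and EPHA7 are lowest on the left at -0.71 and -0.65, AXL is highest at 0.55, and on the right EPHB2 is lowest at -0.35. EPHA3 met the level filter only through NT1.

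The responses to the 2 knockdowns were compared by the difference of the log2 changes, PRKCI_KD against NT1 minus SOX2_KD against NT2. It passed for 8 of the 26 receptors, 30.8%, beside 26.2% of all tested genes (11.4% higher, 14.8% lower). AXL (0.55 ± 0.089, adjusted p = 0.00104), ERBB3 (0.47 ± 0.105, adjusted p = 0.00710), EPHA3 (-0.72 ± 0.106, adjusted p = 6.13e-04) and EPHA7 (-0.85 ± 0.109, adjusted p = 2.51e-04) were at 0.323 RPKM or less throughout NT2 and SOX2_KD. On this scale little change could register for them in that pair. EPHA3 also met the level filter only through NT1. For AXL, ERBB3 and EPHA3 the difference is close to the change in PRKCI_KD alone, and for EPHA7 the rise of 0.20 in SOX2_KD, not called, adds to it. The AXL difference was not called with a pseudocount of 0.1 (adjusted p = 0.0752).

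For receptors expressed in both pairs the difference is easier to read. EPHA2 rose by 0.33 in PRKCI_KD and was 0.25 lower in SOX2_KD without passing there, and the responses differed by 0.59 ± 0.146 (adjusted p = 0.0128). INSR rose by 0.40 and was at -0.01, a difference of 0.42 ± 0.077 (adjusted p = 0.00239). ROR1 fell by 0.44 and was at 0.03, a difference of -0.47 ± 0.071 (adjusted p = 6.71e-04). MERTK was at -0.05 and rose by 0.20, a difference of -0.25 ± 0.070 (adjusted p = 0.0231) that was lost without NT1 replicate 2 (0.0574), PRKCI_KD replicate 2 (0.0542), NT2 replicate 3 (0.0509) or SOX2_KD replicate 2 (0.0603).

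EPHB2 and STYK1 fell in both comparisons, and their differences were -0.05 ± 0.093 (95% interval -0.25 to 0.16) and -0.04 ± 0.092 (95% interval -0.24 to 0.16). On the means EPHB2 fell 1.57-fold in PRKCI_KD and 1.66-fold in SOX2_KD, and STYK1 1.62-fold and 1.25-fold. The small STYK1 difference depends on the scale, since its level was lower in NT1 than in NT2. With a pseudocount of 0.1 its log2 changes were -0.62 ± 0.109 in PRKCI_KD and -0.31 ± 0.109 in SOX2_KD. The 2 comparisons share no libraries, and their flow cells differ.

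The 17 receptors below the test level were ERBB4, PDGFRB, CSF1R, FLT1, NTRK2, NTRK3, MST1R, TIE1, TEK, EPHA4, EPHB1, EPHB3, EPHB6, DDR2, ROS1, LTK and ALK. Their highest value in any library ranged from 0.00137 RPKM for NTRK3 to 0.575 RPKM for EPHB6. ALK and ROS1, whose fusions drive some lung cancers, had at most 12 and 4 reads in a library. EPHA4 just missed the level, at 0.481 to 0.491 RPKM in NT1 and 0.307 to 0.315 RPKM in PRKCI_KD, and EPHB6 reached 0.5 RPKM in too few libraries. FLT3 and EPHA10 were just inside, with up to 1.06 and 1.25 RPKM. No receptor was at 0 in all 12 libraries, and 37 of the 43 were above 0 in each.

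A few of these low receptors had separate groups all the same. TIE1, an endothelial receptor, was 0.0226, 0.0598 and 0.0229 RPKM in NT1 and 0.185, 0.115 and 0.173 RPKM in PRKCI_KD, up to 116 reads. With no level filter TIE1, DDR2 and EPHB1 were called higher and EPHA4 and TEK lower in PRKCI_KD, with log2 changes between -0.18 and 0.16. These were 5 of the 17, beside 7.16% of all genes that only the unfiltered fit tested, a set that reaches down to genes detected in a single library. Endothelial markers summed to 0.821 to 1.15 RPKM in NT1 and 0.677 to 0.729 RPKM in PRKCI_KD, and their part in the TIE1 values was not tested.

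Genes that act with these receptors were counted from lists of ligands, co-receptors, adaptors, negative regulators and shedding proteases. The counts are to be read beside the shares of all tested genes that passed. Those were 18.2% higher and 26.9% lower in PRKCI_KD, and 3.6% higher and 4.62% lower in SOX2_KD. Of 33 tested ligand genes, 15 rose and 10 fell in PRKCI_KD. VEGFA, which signals through FLT1 and KDR, rose from 1.85 ± 0.0982 to 16.5 ± 0.608 RPKM (log2 2.62 ± 0.047, adjusted p = 4.41e-11), and the EGFR ligand TGFA from 2.15 ± 0.205 to 4.996 ± 0.0866 RPKM (log2 0.93 ± 0.058, adjusted p = 4.60e-07). FLT1 and KDR themselves had at most 21 reads in any library. PDGFB, a PDGF receptor ligand, rose from 1.70 ± 0.245 to 4.79 ± 0.415 RPKM (adjusted p = 1.61e-06), while PTN, listed here as a possible ligand of ALK, fell by 0.90 ± 0.066 (adjusted p = 1.49e-06). In NT1 and PRKCI_KD, PDGFRA and PDGFRB had at most 59 and 94 reads in a library, and ALK at most 6. In SOX2_KD 4 of the 33 rose and 4 fell, among them PDGFB, which was lower (log2 -0.39 ± 0.081, adjusted p = 0.0154), and BDNF, the NTRK2 ligand, which was higher (log2 0.31 ± 0.051, adjusted p = 0.00462). NTRK2 itself had at most 16 reads in any library. NRG1, the ERBB3 and ERBB4 ligand, fell by 0.23 ± 0.048 (adjusted p = 0.0168), and EFNA3, an ephrin-A gene, rose by 0.36 ± 0.077 (adjusted p = 0.0185).

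No co-receptor gene rose and 6 of 7 tested fell in PRKCI_KD, where 18.2% of all tested genes rose and 26.9% fell. NRP1, the co-receptor of VEGF receptors, went from 4.32 ± 0.294 to 0.700 ± 0.0590 RPKM (log2 -1.65 ± 0.051, adjusted p = 2.23e-09), and GFRA1, through which GDNF engages RET, from 13.8 ± 0.961 to 7.74 ± 0.277 RPKM (log2 -0.76 ± 0.054, adjusted p = 1.11e-06). RET itself had at most 38 reads in any NT1 or PRKCI_KD library. NRP2 fell by 0.42 ± 0.037 (adjusted p = 6.66e-06) and the MET partner PLXNB1 by 0.85 ± 0.093 (adjusted p = 2.77e-05). NRP2 was at 0.712 ± 0.0290 RPKM in NT1 and 0.283 ± 0.0218 RPKM in PRKCI_KD. In NT2 and SOX2_KD it had 4 to 15 reads per library. NRP2, which is among the 6, thus met the level filter only through NT1. That selection favours a fall, so its p-value is to be read with that limit. In SOX2_KD 1 of the 7 fell, beside 4.62% of all tested genes. It was NGFR, the neurotrophin co-receptor (log2 -0.34 ± 0.070, adjusted p = 0.0142).

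Of 29 tested adaptor and effector genes 5 rose and 7 fell in PRKCI_KD, with a median of 0.00 beside -0.04 over all genes. Of all tested genes 18.2% rose and 26.9% fell in that comparison. PIK3R1 and PIK3R3, regulatory subunits of PI3K, fell by 0.63 ± 0.070 (adjusted p = 3.15e-05) and 0.62 ± 0.055 (adjusted p = 6.76e-06). SHC1 rose from 72.9 ± 4.79 to 103 ± 4.63 RPKM (log2 0.49 ± 0.061, adjusted p = 6.45e-05), and it was also higher in SOX2_KD, at 227 ± 12.0 against 179 ± 3.32 RPKM (log2 0.34 ± 0.061, adjusted p = 0.00758). In SOX2_KD GRB7 was higher (log2 0.34 ± 0.074, adjusted p = 0.0171), and GRB10, which binds the insulin receptor, and GRB2 were lower (log2 -0.28 ± 0.039 and -0.19 ± 0.039, adjusted p = 0.00237 and 0.0140).

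Among 21 tested negative regulators 6 rose and 7 fell in PRKCI_KD, and 4 fell and none rose in SOX2_KD. The shares of all tested genes were 18.2% higher and 26.9% lower in PRKCI_KD, and 3.6% and 4.62% in SOX2_KD. LRIG1, which lowers EGF-family receptors, rose by 0.55 ± 0.064 (adjusted p = 4.09e-05) in PRKCI_KD, as did the phosphatase gene PTPRJ, by 0.49 ± 0.057 (adjusted p = 4.57e-05). SH3KBP1, a CBL partner in receptor uptake, fell in PRKCI_KD by 0.53 ± 0.050 (adjusted p = 9.70e-06) and in SOX2_KD by 0.35 ± 0.050 (adjusted p = 0.00251), and so did SH2B3, by 0.69 ± 0.069 (adjusted p = 1.41e-05) and 0.32 ± 0.069 (adjusted p = 0.0166). PTPRJ was lower in SOX2_KD (log2 -0.22 ± 0.057, adjusted p = 0.0384), the opposite side from PRKCI_KD, and SOCS2 fell there by 0.42 ± 0.064 (adjusted p = 0.00325).

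Of 10 tested protease genes 1 rose and 3 fell in PRKCI_KD, beside 18.2% higher and 26.9% lower over all tested genes. ADAM10, a sheddase of several of the receptors, rose from 10.2 ± 0.455 to 16.0 ± 0.582 RPKM (log2 0.60 ± 0.067, adjusted p = 3.19e-05). ADAM17, which releases TGFA and other EGFR ligands, was lower in each knockdown (log2 -0.59 ± 0.049 in PRKCI_KD and -0.58 ± 0.049 in SOX2_KD, adjusted p = 4.09e-06 and 1.24e-04), but its deposited values came out as whole reads in only 3 of 12 libraries, those of PRKCI_KD. ADAM15 fell by 0.33 ± 0.102 (adjusted p = 0.0206) and the gamma-secretase gene PSENEN by 0.27 ± 0.059 (adjusted p = 0.00327) in PRKCI_KD.

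Among 9 tested receptor kinases outside the 43, 2 rose and 3 fell in PRKCI_KD, and 2 fell in SOX2_KD, namely FGFR2 and PDGFRA. The shares of all tested genes were 18.2% higher and 26.9% lower in PRKCI_KD, and 4.62% lower in SOX2_KD. PDGFRA fell from 146 ± 11.4 to 117 ± 5.19 RPKM (log2 -0.31 ± 0.059, adjusted p = 0.00937). FGFRL1, a decoy-like FGF receptor, fell by 0.98 ± 0.145 (adjusted p = 2.58e-04) and LMTK2 by 0.22 ± 0.051 (adjusted p = 0.00478) in PRKCI_KD, while LMTK3 rose by 0.47 ± 0.080 (adjusted p = 6.94e-04). FGFR2 is listed lower in each knockdown (log2 -1.41 ± 0.070 and -2.60 ± 0.070, adjusted p = 8.69e-08 and 6.78e-09), but its deposited values have a pattern of their own. They correspond to 2150, 1270 and 1320 reads in NT1 and 7470, 9010 and 6330 in NT2, multiples of 10 in all 6 control libraries and in none of the 6 knockdown libraries, and 1 PRKCI_KD library was not at a whole read. No other gene of the 226 checked had multiples of 10 in more than 3 control libraries. How the FGFR2, ADAM17 and SOX2 values came about was not tested, and the counts above that include FGFR2 or ADAM17 are 1 lower without them.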

How the data were processed

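The libraries were prepared from 120 ng of total RNA with a TruSeq RNA v2 kit, which does not mark strand, and read from both ends over 101 bases, per the labels' protocols. Reads were handled with TopHat2 2.1, Bowtie 1.1.2 and featureCounts on GRCh38, per the submitters' processing notes. The sources used here name no annotation, strand setting or filter. The authors deposited 1 table of RPKM values for 12 libraries, with 64253 rows.

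Rows whose name was a date (29) or was listed more than once were left out, except the 869 repeated names with a single row above 0. The rows left out held 2.09% to 2.99% of summed RPKM. Read totals and gene lengths were solved from the RPKM: 33 of the 43 receptors gave whole reads (tolerance 0.001) at their GENCODE exonic length plus 1, 9 at another length found by scanning 0.4 to 2 times that length, and for NTRK3 the length was not settled. Reads are shown only to give depth. The strand of overlapping genes was not known, so reads of a receptor and an antisense gene cannot be told apart, and 7.4% of the exonic bases of ERBB2, the most of any receptor, are shared.

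Tests used limma 3.58.1 in R 4.3.3 (trended prior) on log2(RPKM + 1) of genes that reached 0.5 RPKM in 3 or more libraries, with 4 group means over all 12 libraries, 8 residual degrees of freedom and Benjamini-Hochberg adjustment. The fit was run on simulated data with independent normal spread between libraries. The model assumes that spread, so the run does not bear on effects that libraries may share. Receptors at the filter level were named with their values, and the rest by range. From each list the up to 4 genes with the smallest p were named if they passed and their groups did not overlap. The receptors and lists were chosen with earlier results of these data known. Same-numbered libraries correlated in their deviations at r = 0.50, 0.24 and 0.24 in NT2 and SOX2_KD. The highest r with another number was -0.27, 0.12 and 0.23 for replicates 1, 2 and 3. Only replicate 1 stood clearly apart, so that the numbers pair these libraries is weakly supported, and the block served as an alternative only. Alternatives covered pseudocount, filter, scaling, flow cell, replicate block, variance model and leaving out each library. Figures were drawn with matplotlib 3.10.9. Promoters come from RefSeq (GRCh38.p14), with 39 of 43 receptors matched.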

Additional observations from a re-analysis of the deposited data

Results flagged for a closer look

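The log2 response of 8 receptors differed between the knockdowns by the test of the difference itself (limma, adjusted over all tested genes). AXL (0.55, adjusted p = 0.00104), EPHA2 (0.59, adjusted p = 0.0128), ERBB3 (0.47, adjusted p = 0.00710) and INSR (0.42, adjusted p = 0.00239) responded more positively to loss of PRKCI than to loss of SOX2. EPHA3 (-0.72, adjusted p = 6.13e-04), EPHA7 (-0.85, adjusted p = 2.51e-04), MERTK (-0.25, adjusted p = 0.0231) and ROR1 (-0.47, adjusted p = 6.71e-04) responded more negatively. Among these, AXL, EPHA3, EPHA7 and ERBB3 lay at 0.323 RPKM or less in NT2 and SOX2_KD, whereas EPHA2, INSR, MERTK and ROR1 exceeded 1 RPKM in every library. EPHA3 met the level filter only through NT1. The share of receptors, 30.8%, stood beside 26.2% of all tested genes, and flow cell and knockdown cannot be told apart in this comparison.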

How the results depend on the processing

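The count of receptors called in PRKCI_KD was 14 as reported and 11 to 17 in the alternatives: 11 in the fit of the flow cell's own 6 libraries (where 37.1% of all tested genes were called), 16 with the replicate block (54.5%) and 17 of 43 without a level filter (21.9%). Leaving out single libraries gave 11 to 14 (39.1% to 46.7%). In SOX2_KD the count was 3 as reported, 8 with the replicate block (17.4%), 2 or 3 in the other settings (2.93% to 9.02%) and 1 to 4 when single libraries were left out (3.45% to 11.3%). For the difference between the responses it was 8 as reported and 7 to 12 (11.3% to 36.7%), and for NT2 against NT1 24 and 22 to 32 (44.3% to 80.4%). The lowest share in each of these ranges over settings was that without a level filter, where 44268 genes were tested. Same-numbered NT1 and PRKCI_KD libraries correlated in their deviations at r = 0.49, -0.11 and 0.34. The highest r with another number was -0.22, 0.22 and 0.25. Replicate 1 stood apart there too, while replicate 2 went against a pairing. A pairing by number is weakly supported at best in that pair, as in NT2 and SOX2_KD. The block is therefore a hint only in either pair. It called RYK and EPHA1 in addition in PRKCI_KD, and it added no receptor to the difference other than RYK. The named receptors that lost a call were 4 in PRKCI_KD, 2 in SOX2_KD and 2 in the difference, as given above, and none in NT2 against NT1. Scaling by quantiles turned MERTK to 0.0063 in PRKCI_KD and the FLT4 difference to -0.039, and a pseudocount of 5 turned the STYK1 difference to 0.081. With single libraries left out, EPHB4 in PRKCI_KD ranged from -0.18 to 0.020 (positive without NT1 replicate 1), and the differences ranged from -0.0023 to 0.092 for FLT4 (-0.0022 without NT1 replicate 3), from -0.052 to 0.15 for DDR1, from -0.025 to 0.17 for EPHB4 (-0.0071 without NT2 replicate 1) and from -0.085 to 0.0091 for STYK1 (0.0076 without NT1 replicate 3). None of these receptors passed in the comparison concerned, and the cause was not tested. No scaling moved the median of all genes by over 0.1. Depth limits ALK, ROS1, NTRK2, TEK, CSF1R and FLT1, which had at most 21 reads in a library, NTRK3, and EPHA5, EPHA3, EPHA7 and AXL in NT2 and SOX2_KD.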
